A study of Arabidopsis thaliana and Nicotiana tabacum with 16 samples.

Results

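The translatomes of 2 rRNA-depleted Ribo-seq libraries of Arabidopsis thaliana were compared gene by gene. Ribo-seq counts ribosome-protected fragments (RPFs), the pieces of mRNA that ribosomes shield from nuclease. One library had been depleted with version 1 of a biotinylated oligo cocktail (V1) and the other with version 2 (V2). Genes were kept where at least 1 of both libraries held 10 or more RPF counts over the coding sequence (CDS), which left 17091 of the 27628 entries in the count table. Both libraries were labelled as wild-type Col-0 seedlings, 14 days old, and both lysates were digested with 600 U of RNase I. According to the growth notes, seedlings used for depletion grew on Murashige and Skoog agar for which no sucrose was named, at 100 µmol m-2 s-1 in 12 h light and 12 h dark at 20 °C. Whether both libraries came from the same plants was not stated in the sources used here. The cocktail, the library and possibly the plants changed together between V1 and V2, with 1 library a side. Their parts in any difference therefore cannot be told apart. No test was possible, and every result is a ratio with an interval for counting error.

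Undepleted libraries of the same ecotype served as a scale for the differences. Of these, 3 RNase I libraries came from 14-day seedlings under the conditions above, digested with 400, 550 and 700 U. The other 3 RNase I libraries, digested with 63, 125 and 250 U, came from 8-day seedlings in 16 h light and 8 h dark on medium with sucrose. A pair of rRNA-depleted libraries made with a ligation-based and a ligation-free kit, also labelled 14-day and 600 U, gave further levels, called the kit libraries. In both ages the 3 undepleted libraries differed in nuclease dose and were not repeats of one treatment. According to the paper, undepleted RPFs were selected over a wider size range, reaching longer fragments, than rRNA-depleted ones. Depletion and size range thus differ together between V1 or V2 and the undepleted libraries, so their parts in such differences cannot be told apart. V1 held 7058885 counts over CDS and V2 held 5188245. At 100 counts in each library the 95% interval of a log2 ratio spanned 0.41 to either side, and at 20 counts 0.97. Levels are given as CPM (counts scaled to a common library total) after TMM scaling with V2 as the reference, a method that sets the bulk of genes equal. Fold differences were computed after adding 0.5 to each count, and positive log2 ratios mean higher in V1. For pooled seedlings, fewer cells of a type and less RNA per cell cannot be told apart, and RPF counts combine mRNA abundance with ribosome load.

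The age label of V1 did not match its levels. Over 16638 genes with 10 or more counts in at least 1 undepleted RNase I library, V1 lay within 2-fold of the mean of the 8-day libraries for 98.3% of genes, but within 2-fold of the 14-day mean for 78.2%. Single undepleted libraries lay within 2-fold of the other members of their own age for 92.9% to 95.7% of genes. V1, labelled as 14-day material, was thus as near to the 8-day libraries as those were to each other. The 8-day MNase libraries gave 96.6%. V2 fitted neither age, with 82.5% of genes within 2-fold of the 8-day mean and 74.7% within 2-fold of the 14-day mean. V1 lay within 2-fold of the kit libraries for 82.6% and 86.2% of genes and V2 for 78.3% and 81.4%. V1 is kept here under its label, and levels of both ages are given beside the main results.

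**Figure D1:**
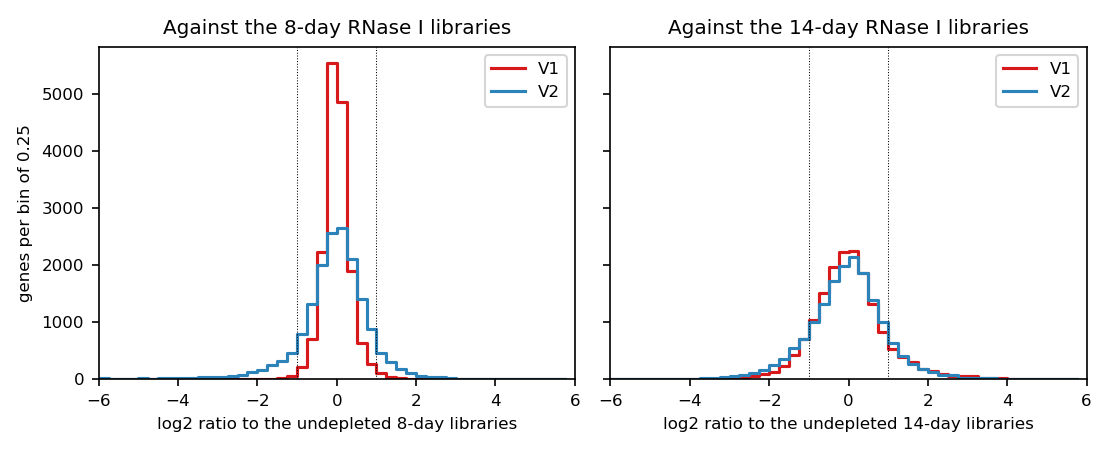
Distribution over genes of the log2 ratio of V1 and of V2 to the mean of the 8-day and of the 14-day undepleted RNase I libraries (x axis, log2 ratio; y axis, genes per bin). V1 forms a narrow peak around the 8-day mean (SD 0.36), while its distribution around the 14-day mean (SD 0.94) and both distributions of V2 (SD 0.92 and 1.00) are broad.

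Seedlings hold roots as well as leaves, and each organ has its own set of heavily translated mRNAs. Roots take up iron, phosphate and nitrogen through dedicated transporters and reductases, and their hairs and endodermis build specialised walls. Leaves devote much of their protein synthesis to light harvesting, carbon fixation and photorespiration. Low oxygen switches metabolism to fermentation through plant-specific transcription factors and enzymes such as alcohol dehydrogenase, and cold induces hydrophilic protective proteins through CBF factors that bind the CCGAC core element.

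The cocktails themselves differed by 5 of 29 oligos, which were added in version 2. They are shown because they are the designed difference between both libraries. Each is written 5′ to 3′ in lower case and is complementary to the rRNA strand. Each had 2 exact matches in the genome, of which 1 is given. On TAIR10.1 the first matched chr2:5786-5833 within the 5.8S rRNA gene and the next matched chr2:7899-7951. The remaining 3 matched the chloroplast genome at 101039 to 101083 within 16S rRNA, and at 105848 to 105883 and 106210 to 106257 within 23S rRNA.
Nu_5.8S_3: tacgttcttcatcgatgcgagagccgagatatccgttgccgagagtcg
Nu_25S_11: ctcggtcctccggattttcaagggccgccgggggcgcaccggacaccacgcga
Cp_16S_2: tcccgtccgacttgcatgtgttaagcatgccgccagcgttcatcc
Cp_23S_6: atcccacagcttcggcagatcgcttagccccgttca
Cp_23S_7: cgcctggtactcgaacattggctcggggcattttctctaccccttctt
Among counted genes, 1 CDS held a run of 16 bases complementary to an added oligo. That gene was LNO1, a nuclear pore protein, with 173 counts in V1 and 56 in V2 (log2 ratio 0.83), and its run matched Cp_23S_7. None of the genes described next carried such a run to any oligo of the cocktails.

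Across the 17091 genes, 1888 (11.0%) were at least 2-fold higher in V1 and 1292 (7.56%) at least 2-fold higher in V2. The log2 ratio had a median of 0.00 and an SD of 0.97, with quartiles at -0.41 and 0.45. Differences of 8-fold or more were reached by 265 genes higher in V1 and by 60 higher in V2. For 442 and 508 genes, respectively, the whole interval lay beyond 2-fold. This split depends on the scaling, since plain CPM shifts every log2 ratio up by 0.34. With TMM, 59.4% of the genes past 2-fold were higher in V1, and with plain CPM 82.0% were. It also depends on the count minimum: with 10 or more counts in both libraries the share was 37.1%. V2 was at 0 in 167 counted genes and V1 in 5. Genes near the minimum were imprecise. Those with a highest count of 10 or 11 had an SD of 1.46, and those just outside it, with 8 or 9, an SD of 1.60.

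The spread of the contrast was set beside that of library pairs from one preparation. Over 3233 genes with 100 or more counts in each library compared, 8.10% (262 genes) lay past 2-fold between V1 and V2 after centring on the median. Between the 14-day library of 700 U and its repeat library, 0.588% (19 genes) did, and between the 400 and 550 U libraries 0 genes did. The SDs of the log2 ratio were 0.58, 0.30 and 0.14. The repeat library was made from the same RPFs but with more PCR cycles, a difference that the paper used to assess PCR bias. The 400 and 550 U libraries belong to one nuclease titration. Both pairs thus show technical spread and not the spread between separately grown plants, which was not measured. V2 was also the more concentrated library, with 45.3% of its CDS counts in its 100 highest genes against 38.3% in V1. The ratio was nearly unrelated to GC content (Spearman's rho 0.03 across nuclear genes, which are not replicates) and to CDS length (rho -0.03).

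**Figure D2:**
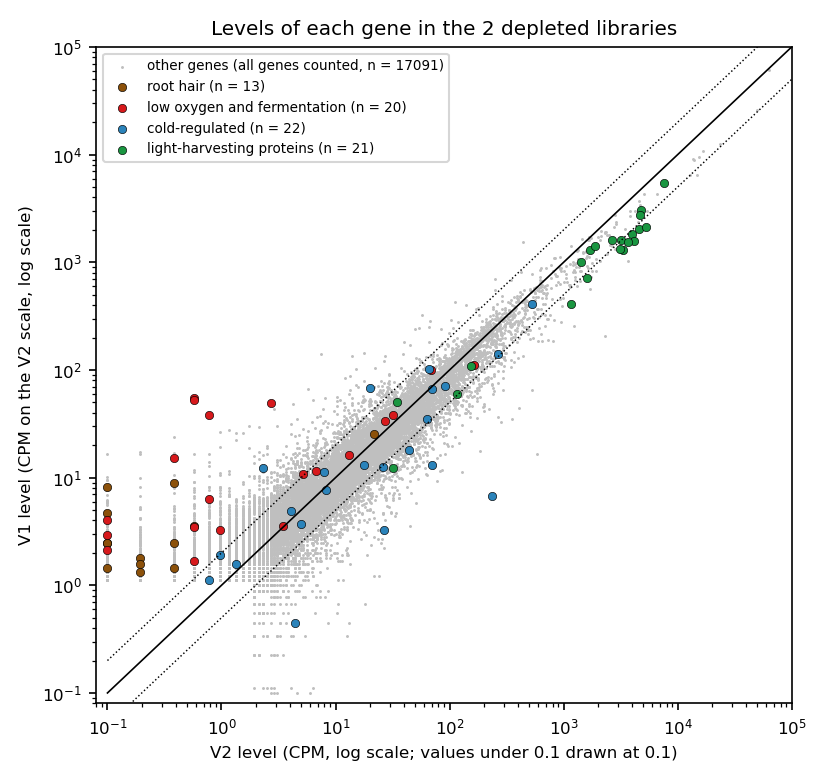
Level of each counted gene in V1 (y axis, CPM, log scale) against V2 (x axis, CPM, log scale), both on the TMM scale, with 4 gene lists coloured, a solid line of equality and dotted lines of 2-fold difference; values under 0.1 CPM are drawn at 0.1. Most of the 13 root hair and 20 low-oxygen genes lie above the line, toward V1, whereas 20 of 21 light-harvesting genes lie below it at the high end.

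Genes of low-oxygen metabolism stood among the most V1-biased. HB1 (AT2G16060), a haemoglobin that scavenges nitric oxide under oxygen shortage, had 488 counts in V1 and 3 in V2, or 54.5 against 0.578 CPM. The 8-day libraries had 61.0 to 76.5 CPM of HB1 and the 14-day libraries 2.80 to 6.06, so V1 was near the former and V2 below both. The kit libraries had 3.07 and 1.71 CPM. The fold was 80.9 (log2 6.34, interval 5.00 to 8.84). SAD6 (AT1G43800), a stearoyl-acyl carrier protein desaturase, had 467 counts against 3, with 49.3 to 63.7 CPM at 8 days and 0.340 to 2.03 at 14 days. The 14-day repeat library had 8.41 CPM of SAD6. Its V1 level of 52.2 CPM fell inside the 8-day range, and the fold to V2 was 77.4.

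The enzymes of ethanolic fermentation were also higher in V1. PDC1, a pyruvate decarboxylase, had 340 counts in V1 and 4 in V2 (38.0 and 0.771 CPM, log2 5.45, interval 4.25 to 7.51). ADH1, the alcohol dehydrogenase that acts after it, had 445 and 14 counts (49.7 and 2.70 CPM, log2 4.15, interval 3.44 to 5.09). SUS4, a sucrose synthase that feeds glycolysis, had 136 and 2 counts (log2 4.98, interval 3.42 to 8.36). The undepleted 14-day levels were 1.78 to 5.74 CPM for PDC1, 3.05 to 3.51 for ADH1 and 0.957 to 1.78 for SUS4. The kit libraries had 0.00 and 0.569 CPM of PDC1, 2.73 and 2.85 of ADH1 and 0.683 and 0.759 of SUS4. PDC1 and ADH1 in V2 were thus near the low levels of the other libraries with its label, V1 excepted. Their 8-day levels were 27.4 to 33.6, 51.5 to 62.0 and 11.9 to 16.9 CPM.

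The plant cysteine oxidases PCO1 and PCO2, which sense oxygen, had 36 and 19 counts in V1 and 0 in V2, at least 6.95-fold and 3.67-fold higher against a floor of 3 counts in V2. Isoforms and enzymes with wider roles differed little. PDC2 was at 144 and 68 counts (log2 0.29, interval -0.13 to 0.73), SUS1 at 299 and 141 (log2 0.29) and the alanine aminotransferase ALAAT1 at 893 and 356 (log2 0.54, interval 0.36 to 0.72). PPDK, the pyruvate orthophosphate dikinase, was the single counted member below 0 (log2 -0.56, interval -0.69 to -0.42). Of 24 listed genes 20 were counted, 13 of them at least 2-fold higher in V1 and 0 in V2, where 11.0% and 7.56% of all genes were, with a median log2 ratio of 2.01 against 0.00 for all genes. Several passed the count minimum only through V1, so that count and that median carry a bias, and with 10 or more counts in both libraries the median was 0.29. Summed over all 24 members, V1 held 5013 counts and V2 1695, or 560 and 327 CPM. Over the 20 counted members the sums were 557 CPM in V1 and 327 in V2. The 8-day libraries had 549 to 599 CPM over these and the 14-day libraries 298 to 329, so the summed level of V2 lay in the 14-day range. That sum included members with wider roles: ALAAT1, SUS1 and PDC2 held 356, 141 and 68 of the 1695 counts in V2. HB1, PDC1, ADH1 and SUS4 were each below their 14-day ranges in V2, and SAD6 was inside its range.

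The promoter of PDC1 is shown because it holds 3 copies of AAACCA, the core of the anaerobic response element. It covers chr4:15954804-15955103 on the minus strand of TAIR10.1 (RefSeq), the 300 bases before the annotated gene start, with AAACCA in capitals.
PDC1: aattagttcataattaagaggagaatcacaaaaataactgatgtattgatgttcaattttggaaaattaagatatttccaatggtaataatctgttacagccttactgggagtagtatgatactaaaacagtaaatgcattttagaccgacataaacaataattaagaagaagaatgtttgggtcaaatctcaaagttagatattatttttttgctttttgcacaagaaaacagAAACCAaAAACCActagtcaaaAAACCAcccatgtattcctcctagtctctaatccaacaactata
Searched on both strands, AAACCA occurred in 9 of 20 promoters of counted low-oxygen genes and in 32.2% of the 16964 promoters read for counted genes. Genes at least 2-fold higher in V1 gave 32.2%, the same share as all genes.

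Most root hair genes had few or no counts in V2. PRP3, a proline-rich wall protein of root hairs, had 74 counts in V1 and 0 in V2, at least 14.3-fold higher. LRX1, an extensin that shapes the hair wall, had 42 and 0 counts, at least 8.11-fold. RHS19, a root-hair-specific peroxidase, had 79 and 2 counts (18.4-fold, log2 interval 2.62 to 7.59). RBOHC, the NADPH oxidase needed for hair growth, had 32 and 3 (log2 2.43, interval 0.95 to 4.98). CSLD3, a cellulose synthase-like protein also translated outside hairs, was the exception with 226 and 113 counts (log2 0.21, interval -0.12 to 0.55). All 14 listed members had more CPM in V1, and together they summed to 593 counts in V1 and 125 in V2, a 2.74-fold difference in level (log2 1.45, interval 1.18 to 1.75). CSLD3 held 113 of the 125 counts in V2. The other 13 summed to 367 and 12 counts, 17.0-fold (log2 4.09, interval 3.33 to 5.11). Over the 13 counted members, the 14-day libraries summed to 20.7 to 26.5 CPM and V2 to 24.1, while the 8-day libraries summed to 61.5 to 71.7 and V1 to 65.6. CSLD3 supplied most of the V2 and 14-day sums, with 21.8 CPM in V2 and 16.6 to 21.1 in the 14-day libraries. The nearness of V2 to the 14-day sums therefore says little about the other members, which held 2.31 CPM in V2. Of the 13 that were counted, 12 were at least 2-fold higher in V1, but each of these 12 entered through its V1 count. With 10 or more counts in both libraries CSLD3 alone remained. PRP3 stood at 5.82 to 11.4 CPM in the 8-day libraries, 8.26 in V1, 0.319 to 1.02 in the 14-day libraries and 0 in V2, with 1.37 and 1.14 in the kit libraries.

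Endodermal and suberin genes were mixed. The barrier proteins of the Casparian strip were higher in V1. CASP1 had 50 counts against 3 (log2 3.06, interval 1.64 to 5.60), the peroxidase PER64 had 53 against 4 (log2 2.78) and the dirigent-like ESB1 had 122 against 20 (log2 1.79, interval 1.13 to 2.58). CYP86A1, a suberin fatty acid hydroxylase, had 121 against 23 counts (log2 1.58, interval 0.96 to 2.32). The feruloyl transferase ASFT did not separate the libraries (117 and 63 counts, log2 0.10, interval -0.35 to 0.57), and the fatty acid elongase KCS20, which also acts in shoots, leaned to V2 (801 and 660 counts, log2 -0.51, interval -0.66 to -0.36). CASP1 was at 5.58 CPM in V1, 0.578 in V2, 5.58 to 6.07 at 8 days and 2.72 to 3.56 at 14 days, and KCS20 at 89.5, 127, 78.0 to 82.7 and 124 to 161. Among 14 counted genes of 16, 9 were at least 2-fold higher in V1 and 0 in V2, where 11.0% and 7.56% of all genes were. The median was 1.39, but 8 of the 14 passed the minimum only through V1. With 100 or more counts in sum the median was 0.10. The summed level was 171 CPM in both libraries, since KCS20 supplied most of it.

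Most counted iron uptake genes were higher in V1. IRT1, the root iron transporter, had 431 counts in V1 and 22 in V2 (48.1 and 4.24 CPM), a fold of 11.1 (log2 3.47, interval 2.89 to 4.19). FRO2, the ferric reductase that works with it, had 228 and 21 (log2 2.62, interval 2.01 to 3.37). CYP82C4 and F6H1, which make iron-mobilising coumarins, had 167 against 13 counts (log2 2.85) and 136 against 21 (log2 1.88). FER1, a ferritin that stores iron and rises with iron supply, was the opposite, with 412 and 823 counts (46.0 and 159 CPM, log2 -1.78, interval -1.96 to -1.61). Of 11 counted genes 7 were at least 2-fold higher in V1 and 1 in V2 (11.0% and 7.56% of all genes), with a median of 1.94. BHLH38, BHLH39 and AT3G12900 passed the minimum only through V1, and with 10 or more counts in both libraries the median was 0.92. IRT1 was at 34.7 to 36.6 CPM at 8 days and 5.85 to 7.34 at 14 days, and FER1 at 39.7 to 43.7 and 82.6 to 97.9.

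Other root transporters were mixed. The phosphate transporter PHT1;1 had 210 against 40 counts (log2 1.59, interval 1.11 to 2.13) and NIP1;1, an arsenite-permeable aquaglyceroporin, 97 against 6 (log2 3.12, interval 2.05 to 4.71). The nitrate transporter NRT1.1 was level (1044 and 591 counts, log2 0.03, interval -0.11 to 0.18). The ammonium transporter AMT1;2, an endodermal form, was higher in V2 (1076 and 1388 counts, log2 -1.15, interval -1.27 to -1.04). Of 18 counted transporters 8 were at least 2-fold higher in V1 and 2 in V2, where 11.0% and 7.56% of all genes were, with a median of 0.76. IRT1 and FRO2 are shared with the iron list. NRT2.1, SKOR, NIP1;1 and HAK5 passed the minimum only through V1, and with 10 or more counts in both libraries the median was 0.36. The summed levels were close, 478 CPM in V1 and 528 in V2. PHT1;1 was at 23.5 CPM in V1, 7.71 in V2, 19.6 to 30.6 at 8 days and 4.08 to 6.87 at 14 days. AMT1;2 was at 120, 268, 137 to 151 and 39.2 to 49.6, with 168 and 143 in the kit libraries.

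The ER body, a compartment of seedling and root cells filled with myrosinase-like beta-glucosidases, differed less than the hairs. BGLU23, its main enzyme, had 12689 counts in V1 and 6065 in V2 (1417 and 1169 CPM, log2 0.28, interval 0.23 to 0.32). The minor enzymes BGLU21 (537 and 121 counts, log2 1.36) and BGLU22 (382 and 75 counts, log2 1.55) separated further. BGLU23 reached 1351 to 1396 CPM at 8 days and 665 to 720 at 14 days, so V2 lay nearer the 8-day libraries here. Over 16 genes 3 were at least 2-fold higher in V1 and 2 in V2, near the shares of all genes (11.0% and 7.56%), with a median of 0.48. The root thalianol genes THAS1, THAH and THAD were each at least 2-fold higher in V2, on 20 to 45 counts in V2.

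**Figure D3:**
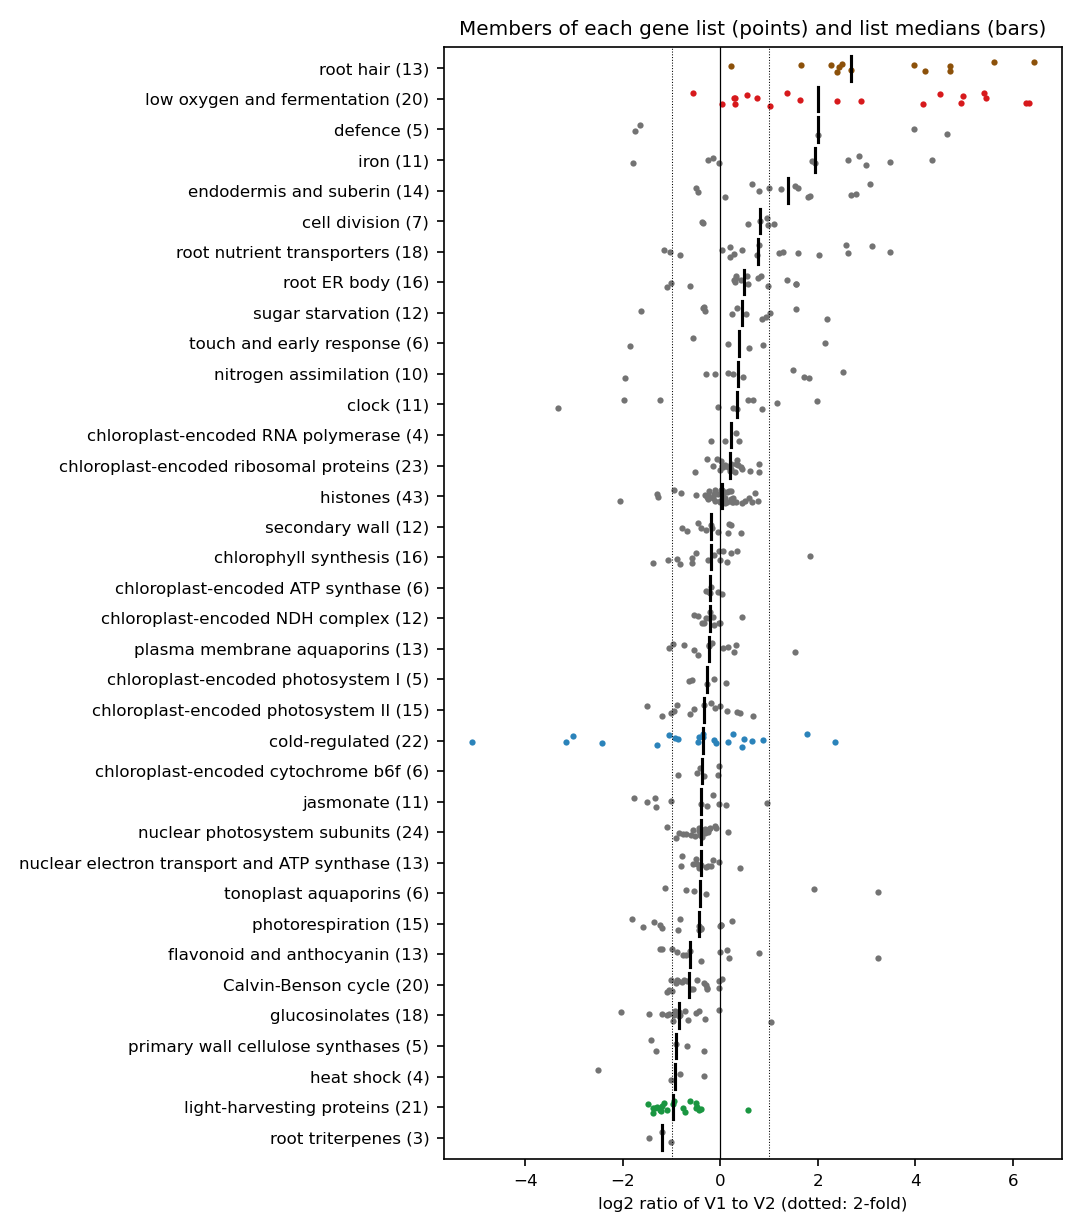
Log2 ratio of V1 to V2 for each counted member of the gene lists (x axis), with 1 point for each gene, a bar at each list median and dotted lines at 2-fold. The number counted stands beside each list name. Root hair (median 2.67), low-oxygen (2.01) and iron genes (1.94) spread to the right, and light-harvesting genes (-0.97), glucosinolate genes (-0.84) and primary wall cellulose synthases (-0.92) to the left, with wide overlap among lists. Points on the right include genes that passed the count minimum only through V1. With 10 or more counts in both libraries the medians were 0.21 for root hair, 0.29 for low-oxygen and 0.92 for iron genes.

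Cold-regulated genes moved in both directions. COR413PM1, a plasma membrane protein of the cold response, had 61 counts in V1 and 1217 in V2 (6.81 and 235 CPM, log2 -5.09, interval -5.50 to -4.73). It stood at 7.52 to 9.74 CPM in the 8-day and 72.4 to 78.2 in the 14-day libraries, so V2 lay above both ages and above the kit libraries (112 and 101 CPM). COR15A, a chloroplast protein that protects membranes during freezing, had 29 and 138 counts (3.24 and 26.6 CPM, log2 -3.02, interval -3.67 to -2.45). RD29A, a hydrophilic protein induced by cold, drought and abscisic acid, had 117 and 365 (13.1 and 70.4 CPM, log2 -2.42, interval -2.74 to -2.12). COR15A was at 4.12 to 6.71 CPM at 8 days and 1.28 to 2.04 at 14 days, and RD29A at 12.2 to 13.6 and 5.09 to 5.78. The kit libraries had 10.9 and 7.59 CPM of COR15A and 12.3 and 14.4 of RD29A. For both genes V2 was the highest of these libraries.

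The close paralogues KIN1 (113 and 136 counts, log2 -1.05) and KIN2 (162 and 230 counts, log2 -1.29) also leaned to V2, though reads of their shared sequence cannot be assigned between them. The dehydrin COR47 differed little (640 and 472 counts, log2 -0.35, interval -0.52 to -0.17). RCI2B, a small membrane protein induced by cold, was higher in V1 with 109 against 12 counts (log2 2.34, interval 1.53 to 3.39), as was GRP7, a cold- and clock-regulated RNA-binding protein, with 615 against 104 (log2 1.77, interval 1.48 to 2.09). CBF1, CBF2 and CBF3, the factors that act above the COR genes, had 1, 5 and 2 counts in V1 and 0 in V2, all under the count minimum. Of 27 listed genes 22 were counted, with a median of -0.35, which came to -0.01 under plain CPM. Of these, 2 were at least 2-fold higher in V1 and 6 in V2, where 11.0% and 7.56% of all genes were. The V1 count was near the share of all genes. The sum over all 27 was 1004 CPM in V1 and 1556 in V2. Over the 22 counted it was 1003 and 1556, against 1143 to 1179 at 8 days and 1783 to 1939 at 14 days. In the 14-day libraries BAM3, a starch-degrading amylase, contributed 1120 to 1145 CPM.

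The promoters of COR15A (chr2:17712331-17712630, minus strand) and RD29A (chr5:21240417-21240716, plus strand) are shown because they carry the cold element, written in capitals as CCGAC or, on the opposite strand, as GTCGG.
COR15A: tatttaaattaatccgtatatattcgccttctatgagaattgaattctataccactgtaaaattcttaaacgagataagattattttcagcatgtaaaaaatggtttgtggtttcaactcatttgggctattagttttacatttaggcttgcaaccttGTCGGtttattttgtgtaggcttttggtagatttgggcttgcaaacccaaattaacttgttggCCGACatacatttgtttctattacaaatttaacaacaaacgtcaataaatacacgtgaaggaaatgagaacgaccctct
RD29A: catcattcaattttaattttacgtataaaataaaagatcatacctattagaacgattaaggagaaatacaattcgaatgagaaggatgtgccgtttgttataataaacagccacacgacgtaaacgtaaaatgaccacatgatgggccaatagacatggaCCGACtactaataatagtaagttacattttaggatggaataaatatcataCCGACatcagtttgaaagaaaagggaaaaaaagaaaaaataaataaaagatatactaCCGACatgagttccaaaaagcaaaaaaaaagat
CCGAC on either strand occurred in 10 of 22 promoters of counted cold genes (45.5%), in 15.1% of all promoters read, in 15.4% of those of genes at least 2-fold higher in V2 and in 13.5% of those higher in V1. ACGTG, the core of the abscisic acid element, occurred in 50.0% of cold promoters and 26.1% of all. GATAAG, the I-box of light-regulated genes, occurred in 14.6% of all promoters and 19.0% of those of light-harvesting genes. Genes past 2-fold in either direction as a whole therefore held CCGAC about as often as all genes.

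Photosynthesis genes leaned to V2, by amounts that differed with the protein complex. The light-harvesting chlorophyll-binding proteins stood furthest out. LHCB2.2, an antenna protein of photosystem II, had 14253 counts in V1 and 21449 in V2 (1592 and 4134 CPM, log2 -1.38, interval -1.41 to -1.35). LHCB3 had 19221 and 27251 (log2 -1.29) and LHCA4, of photosystem I, 13966 and 18997 (log2 -1.23). LHCB2.2 reached 1817 to 2032 CPM at 8 days and 1875 to 2237 at 14 days, so V2 lay above the RNase I libraries of both ages. Of 21 members 10 were at least 2-fold higher in V2 and 0 in V1, where 7.56% and 11.0% of all genes were. Their median was -0.97. LHCB4.3 was the single member above 0 (455 and 178 counts, log2 0.56, interval 0.31 to 0.83). The summed level was 31349 CPM in V1 and 59032 in V2, against 35697 to 37671 at 8 days and 39538 to 47015 at 14 days. The LHCB1 and LHCB2 copies are nearly identical and share reads, so their single values are less certain than their sum.

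Photosystem core and extrinsic subunits encoded in the nucleus differed less. Of 24, 23 were below 0 but 1 was past 2-fold, PSBS, the protein of energy-dependent quenching (7390 and 9142 counts, log2 -1.09, interval -1.14 to -1.05). PSBO1 of the oxygen-evolving complex was at log2 -0.40 and PSBQ1 at log2 -0.10. The median of these subunits was -0.40, and under plain CPM it came to -0.05. The electron transport and ATP synthase genes gave -0.40 and 0 of 13 past 2-fold.

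Carbon fixation and photorespiration followed. In the Calvin-Benson cycle 19 of 20 genes were below 0, with a median of -0.65. Of these, 3 were past 2-fold in V2, where 7.56% of all genes were. Rubisco activase (RCA) had 57352 and 66244 counts (6405 and 12768 CPM, 1.99-fold higher in V2), phosphoribulokinase (PRK) 10621 and 12498 (log2 -1.02) and the aldolase FBA1 11861 and 14660 (log2 -1.09, interval -1.13 to -1.06). The small Rubisco subunit RBCS1A, whose near-identical copies share reads, was at log2 -0.69, whereas the chloroplast gene for the large subunit, rbcL, was level with 551637 and 330363 counts (61608 and 63675 CPM, log2 -0.05). The 8-day libraries had 58913 to 61934 CPM of rbcL, the 14-day libraries 26951 to 29924 and the kit libraries 50061 and 42857. Both V1 and V2 were thus nearer the 8-day level of rbcL. In photorespiration GLDP1, the glycine decarboxylase P protein, had 9288 and 18930 counts (1037 and 3649 CPM, log2 -1.81, interval -1.85 to -1.78). The undepleted libraries of both ages had 1053 to 1296 CPM of GLDP1. The aminotransferase AGT1 was at log2 -1.58 and the peroxisomal catalase CAT2 at log2 -1.37, while the glutamate synthase GLU1 (14581 and 8430 counts) and the H protein gene GDCH were at 0.00. Of 15 genes 5 were past 2-fold in V2 and 0 in V1, where 7.56% and 11.0% of all genes were. Their median was -0.45, which came to -0.10 under plain CPM.

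Chlorophyll synthesis held genes of both directions. CRD1, a cyclase subunit, was at log2 -0.90 and PORC, a light-dependent protochlorophyllide oxidoreductase, at log2 -1.08. Its isoform PORB was higher in V1 with 1252 counts against 203 (log2 1.83, interval 1.62 to 2.06). The median of 16 genes was -0.19 with TMM and 0.15 with plain CPM, so the direction of this group turned with the scaling. The same was true of chloroplast-encoded photosystem I, photosystem II, ATP synthase and NDH genes, of plasma membrane aquaporins and of secondary wall genes.

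Chloroplast-encoded genes took 21.8% of CDS counts in V1 and 23.7% in V2. The reaction-centre protein psbA had 231054 and 259915 counts (25804 and 50097 CPM, log2 -0.96, interval -0.97 to -0.95), and psbD 58151 and 76911 (log2 -1.19). The level of psbA was 26865 to 27150 CPM at 8 days and 39932 to 42152 at 14 days. The 12 chloroplast NDH genes summed to 2854 CPM in V1, 3361 in V2, 2566 to 2682 at 8 days and 906 to 1122 at 14 days. Of 15 chloroplast-encoded photosystem II genes, 4 were above 0 and 11 below. Those above 0 included psbT (3450 and 1254 counts, log2 0.67) and psbH (9762 and 4303 counts, log2 0.39). Medians were -0.34 for 15 photosystem II genes, -0.21 for ATP synthase and 0.20 for 23 ribosomal proteins of the chloroplast genome, none of which passed 2-fold. Cytosolic ribosomal proteins were centred on 0.08, with 0 of 177 past 2-fold.

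Abundant nuclear genes leaned to V2 outside photosynthesis too. Of nuclear genes with 5000 or more counts over both libraries, 81 were in the photosynthesis lists and had a median of -0.57 (quartiles -0.91 and -0.32), with 17 past 2-fold in V2 and 0 in V1. The other 139 had a median of -0.27 (quartiles -0.69 and 0.06), with 20 past 2-fold in V2 and 3 in V1. The part of gene abundance in the photosynthesis values was not tested further.

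**Figure D4:**
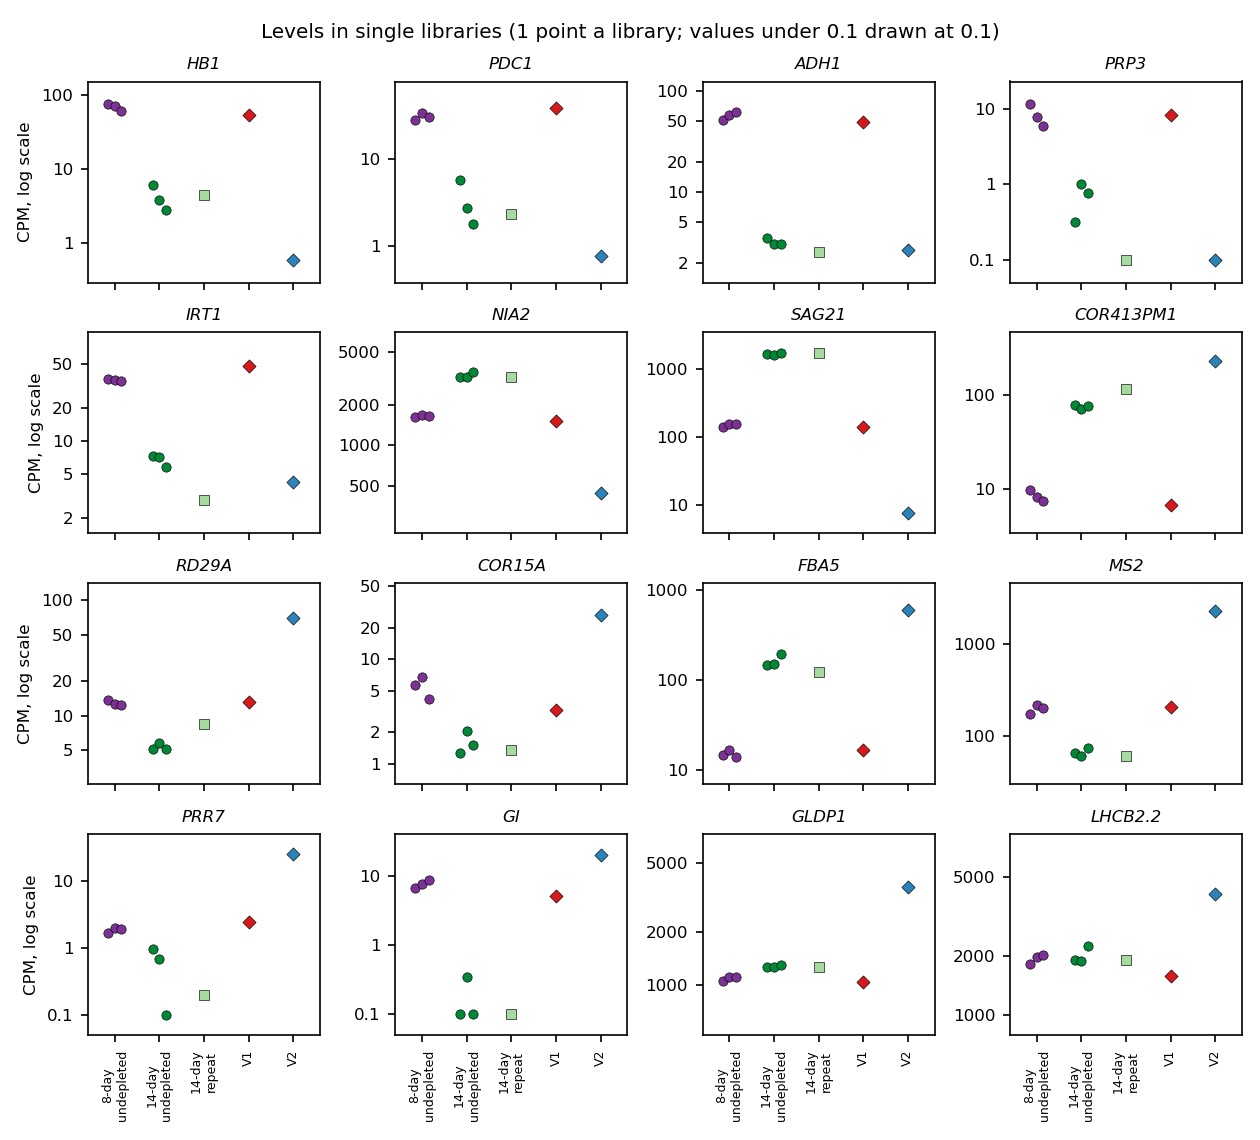
Level (y axis, CPM on the TMM scale, log scale) of 16 genes in single libraries, grouped along the x axis into 8-day undepleted, 14-day undepleted, the 14-day repeat library, V1 and V2, with 1 point for each library and values under 0.1 drawn at 0.1. HB1, PDC1 and IRT1 show V1 beside the 8-day libraries and V2 far below them, while GLDP1, COR15A and RD29A show V2 above all the others.

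The rest of the strongest V2-biased genes came from several processes. FBA5 (AT4G26530), a cytosolic aldolase, had 150 counts in V1 and 3052 in V2 (16.8 and 588 CPM, log2 -5.13, interval -5.38 to -4.90), with 13.9 to 16.9 CPM at 8 days, 145 to 196 at 14 days and 66.6 and 57.9 in the kit libraries. MS2 (AT3G03780), a methionine synthase, had 1865 and 11944 (208 and 2302 CPM, log2 -3.47, interval -3.54 to -3.40), with 177 to 218 CPM at 8 days, 61.9 to 74.0 at 14 days and 259 and 197 in the kit libraries. FIB (AT4G04020), a plastoglobule fibrillin, had 314 and 1815 (log2 -3.32), and the thionin THI2.2 had 159 and 963 (log2 -3.38). The sucrose exporter SWEET13 rose from 11 counts in V1 to 112 in V2 (log2 -4.08, interval -5.18 to -3.24). HFR1, a bHLH factor of light signalling, had 32 and 232 counts (log2 -3.63) and reached 21.4 to 26.5 CPM in the 14-day libraries, 44.7 in V2, 3.57 in V1 and 1.82 to 3.63 in the 8-day libraries. The lipid-transfer-like AT1G62510 had 100 and 669 counts (log2 -3.52). AT1G24147 and AT5G54585, of unknown function, had 6 against 94 and 11 against 124.

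The rest of the strongest V1-biased genes included PAD3. PAD3 (AT3G26830), the last enzyme of camalexin synthesis, had 236 counts against 5 (26.4 and 0.964 CPM, log2 4.64, interval 3.53 to 6.41), with 20.5 to 26.5 CPM at 8 days and 0.254 to 1.91 at 14 days. AACT1 (AT5G61160), an acyltransferase, had 148 and 1 counts, the lectin-like AT1G52070 had 149 and 0 (at least 28.8-fold), the MATE transporter AT2G04050 had 214 and 2, and AT2G19970, a CAP family protein, had 156 and 1. AT1G72645 had 151 and 2. SAG21 (AT4G02380), a late-embryogenesis-like protein, had 1270 and 39 counts (142 and 7.52 CPM, log2 4.22, interval 3.78 to 4.74). It stood at 141 to 153 CPM at 8 days, 1595 to 1722 at 14 days and 478 and 299 in the kit libraries. V2 was thus below all other libraries with its age label, and V1 lay at the 8-day level.

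Nitrogen metabolism held 5 of 10 genes past 2-fold. The nitrate reductases NIA1 (2904 and 295 counts, log2 2.51, interval 2.34 to 2.69) and NIA2 (13794 and 2267 counts, 1541 and 437 CPM, log2 1.82, interval 1.75 to 1.88) and the NADH glutamate synthase GLT1 (6268 and 1298 counts, log2 1.48) were higher in V1, as was UPM1, which makes the sirohaem precursor (log2 1.71). NIA2 was at 1639 to 1697 CPM at 8 days and 3286 to 3544 at 14 days, with 3384 and 2569 in the kit libraries, so V2 was the lowest of these libraries. The nitrite reductase NIR1 (log2 0.47) and the plastid glutamine synthetase GLN2 (log2 -0.11) differed less than 2-fold. Of 10 genes 4 were at least 2-fold higher in V1 and 1, GLN1;4, in V2, where 11.0% and 7.56% of all genes were. Their median was 0.36.

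Clock genes moved in both directions. PRR7 (22 and 131 counts, log2 -3.33, interval -4.08 to -2.70), GI (45 and 103 counts, log2 -1.97, interval -2.52 to -1.46) and LNK1 (278 and 383 counts, log2 -1.25), all expressed in the day, were higher in V2. LHY, a morning factor (1991 and 518 counts, log2 1.15), and ELF3, of the evening complex (64 and 9 counts, log2 1.98), were higher in V1. CCA1, the partner of LHY, was at log2 0.26 and PRR9 at log2 -0.05. Harvest times were not given in the sources used here. PRR9 was at 21.1 to 24.1 CPM at 8 days, 26.4 in V1 and 27.2 in V2, but 0.509 to 1.02 at 14 days, and GI at 6.62 to 8.61, 5.03, 19.9 and 0.00 to 0.340. The kit libraries had 21.2 and 13.7 CPM of GI and 56.4 and 64.5 of PRR9, so the V2 level of GI was within that of 14-day-labelled material.

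Smaller groups added further contrasts. Of 18 glucosinolate genes 17 were below 0. Past 2-fold were 5 in V2 and 1 in V1, where 7.56% and 11.0% of all genes were. CYP79F1 (436 and 1033 counts, log2 -2.03, interval -2.20 to -1.87) and CYP83A1 (log2 -1.46) of the aliphatic branch led those in V2. CYP79B3 of the indolic branch was higher in V1 (329 and 93 counts, log2 1.03). CYP79F1 was at 199 CPM in V2, 48.7 in V1, 48.9 to 51.3 at 8 days, 33.0 to 36.7 at 14 days and 71.1 and 87.3 in the kit libraries. The inducible chaperone HSP70 had 244 and 805 counts (log2 -2.51, interval -2.72 to -2.30) and stood at 155 CPM in V2, 27.3 in V1, 24.4 to 30.9 at 8 days, 4.42 to 5.60 at 14 days and 32.1 and 27.3 in the kit libraries. The small heat shock proteins HSP17.4 and HSP21 had 0 counts in both libraries. Of 11 counted jasmonate genes 5 were past 2-fold in V2 and 0 in V1, where 7.56% and 11.0% of all genes were. Their median of -0.40 came to -0.05 under plain CPM. The allene oxide synthase AOS had 360 and 519 counts (log2 -1.31, interval -1.51 to -1.12), or 40.2 and 100.0 CPM, against 42.1 to 47.2 at 8 days, 21.6 to 25.8 at 14 days and 56.7 and 48.6 in the kit libraries. The sugar-starvation gene DIN10 was higher in V1 (1623 and 206 counts, log2 2.19, interval 1.98 to 2.41), yet both V1 (181 CPM) and V2 (39.7) lay below the 14-day libraries (322 to 352). The primary wall cellulose synthase CESA5 had 753 and 1089 counts (log2 -1.32). The chalcone synthase gene CHS, the entry to flavonoids, had 2045 and 2009 counts (228 and 387 CPM, log2 -0.76), against 254 to 277 CPM at 8 days and 53.0 to 63.6 at 14 days.

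The direction of the contrast overlapped in part with that between the 8-day and 14-day libraries. Those differ together in age, light period, sucrose and nuclease dose, which cannot be told apart. Among the 16638 genes above, 1702 were at least 2-fold higher in V1 than in V2, and 705 of these (41.4%) were also at least 2-fold higher in the 8-day than in the 14-day libraries, a class that made up 11.0% of all genes. Conversely, 156 (9.17%) were higher at 14 days, a class of 10.3% of all. Of 1211 genes higher in V2, 297 (24.5%) were higher at 14 days and 107 (8.84%) at 8 days. The 705 genes were 38.6% of the genes higher at 8 days, and the 107 genes 5.85%. Most genes past 2-fold between V1 and V2 thus did not differ 2-fold in the same direction between the 8-day and 14-day libraries.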

How the data were processed

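RPF libraries were made by the authors from seedling lysates digested with RNase I, and the counts over annotated CDS, as whole numbers per gene, were deposited as one table for all Arabidopsis libraries. Adapters and molecular identifiers were trimmed, rRNA, tRNA and snoRNA reads were removed, and the authors aligned the rest to TAIR10 with STAR, keeping 1 alignment of each multi-mapping read, so near-identical genes share counts. Reads in the sense direction were counted with featureCounts. The deposited library statistics give whole-number read counts per class. Versions of cutadapt, STAR, featureCounts and bedtools were not given in the sources used here. Oligo sequences were taken from the study's oligo table.

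Column names matched the sample descriptions. Counts were scaled by TMM (edgeR 4.0.16) with V2 as reference, and log2 ratios were taken after adding 0.5 (Python 3.11.15, scipy 1.17.1). Intervals are exact Clopper-Pearson intervals at 95% and cover counting error only, since molecular identifiers were trimmed off and no removal of PCR duplicates was stated, so reads need not be independent molecules. With 1 library a side no model was fitted and no p-value was computed. The named genes are the 10 per direction whose interval bound lay furthest from 0 among genes with 100 or more counts in sum, plus up to 6 members of each list. Some further list members were picked with their values in view. The members and lists were chosen with earlier results of these data known. Symbols came from RefSeq (TAIR10.1), and promoters from its genome. Ratio code was checked on simulated data. Plain CPM, nuclear CPM, median centring, DESeq2 1.42.0 size factors, other count minimums, a pseudocount of 5 and GC or length trends were tried.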

Additional observations from a re-analysis of the deposited data

How the results depend on the processing

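With plain CPM, 3104 genes were at least 2-fold higher in V1 and 680 in V2, and with CPM of nuclear counts 2946 and 721. With 10 or more counts in both libraries 654 were higher in V1 and 1110 in V2. A sum of 100 or more gave 472 and 708, a count minimum of 1 gave 3267 and 2493, and a pseudocount of 5 gave 928 and 1231. The larger side thus turned from V1 to V2 with 10 or more counts in both, 100 or more in sum and a pseudocount of 5. These follow from the construction of each setting: plain CPM adds a constant to each ratio, and stricter minimums test fewer genes. Under plain CPM, and then under nuclear CPM, list medians were -0.85 and -0.88 for root triterpenes, -0.0533 and -0.0897 for nuclear photosystem subunits, -0.0601 and -0.0965 for nuclear electron transport, 0.13 and 0.10 for chloroplast ATP synthase, 0.122 and 0.0857 for NDH, 0.55 and 0.51 for chloroplast RNA polymerase, 0.54 and 0.51 for chloroplast ribosomal proteins, 1.15 and 1.11 for cell division, 0.42 and 0.38 for cytosolic ribosomal proteins, 0.38 and 0.34 for histones and 0.52 and 0.48 for mitochondria-encoded genes. Plain CPM gave 0.15 for chlorophyll synthesis. With 10 or more counts in both libraries the medians fell to 0.21 for root hair genes (CSLD3 alone) and 0.29 for low-oxygen genes, and the defence list turned from 2.00 to -1.66. The lowest medians over all settings were 0.92 for iron, 0.36 for root transporters, 0.10 for endodermis and suberin and -0.56 for touch genes, whose main median was 0.38. The root hair median was 0.21 with 100 or more counts in sum and 1.16 with a pseudocount of 5. Removing a trend on CDS length gave -0.0314 for cytosolic ribosomal proteins. Of the counts and medians, 344 values stayed the same, 38 moved and 1 reversed. A count was called the same within a set fold of its main value, and a median within a rank interval of its members. Of the single genes, 885 values stayed within their counting interval, 297 moved and 0 reversed. Single genes were tried only under other scalings and trends, and only those past 2-fold could be called reversed. Plain CPM shifts a log2 ratio by 0.34, so the absence of reversals says little.

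No paired analysis was possible because each side is 1 library and no result comes from a test. For the same reason no library was left out. Depth limits the weakly translated genes: the median gene had 89 counts in V1 and 53 in V2.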
